A study of Mus musculus with 9 samples.

Results

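Metallothioneins are small cysteine-rich proteins that bind zinc and copper, and the amount of free zinc in a cell is set by them together with 2 families of membrane transporters. The Slc30 (ZnT) proteins move zinc out of the cytosol, across the plasma membrane or into organelles, and the Slc39 (ZIP) proteins move it into the cytosol. Mtf1, the metal-responsive transcription factor, binds metal response elements in the promoters of Mt1, Mt2 and Slc30a1 when zinc rises. In macrophages, metallothioneins and some ZIP transporters are also known to be induced by bacterial products or glucocorticoids.

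The 10 genes described here were the metallothioneins Mt1 and Mt2, Mtf1, the exporters Slc30a1, Slc30a5 and Slc30a7, and the importers Slc39a1, Slc39a6, Slc39a10 and Slc39a14. They were found by gene name among the 16921 genes of the RiboSeq table, and all 10 had a mean of at least 10 normalized fitted footprints, as had 10103 genes in all. The group was chosen by earlier results of these data, namely the fold changes of Mt2 in the comparisons of GFP-TTP-AA cells, which were among the highest, and it was filled up with genes of the same function. Fold changes of Mt1 and Mt2 are therefore given as a description with their errors and without a test.

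RiboSeq sequences the mRNA fragments that ribosomes protect from nuclease, so that the value of a gene stands for its ribosome occupancy and holds mRNA abundance and translation together. The cells were bone marrow-derived macrophages (BMDMs) of the mouse labelled as TTP-deficient, grown with M-CSF and immortalized with hcmyc and hRasG12V. TTP, the product of Zfp36, binds AU-rich elements in 3′UTRs and promotes mRNA decay. The CD11b and F4/80 positive cells were transduced with tetracycline-inducible vectors for GFP, GFP-TTP or GFP-TTP-AA, a mutant in which serines phosphorylated by the kinase MK2 are alanines. All 9 libraries, 3 per condition, came from cells given doxycycline (1 μg/ml) for 6 h and LPS (1 μg/ml) for 1 h, so that no unstimulated cells were compared. Each condition was 1 transduced line, and a difference between conditions cannot be told apart from a difference between lines. The marrow was taken from mice aged 6 weeks, and their sex is not given in the sources used here.

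The deposited values were not observed counts but values fitted by the authors' model. Their log2 values equalled a condition term plus a replicate term for each gene and 1 constant for each library, with a residual SD of 1.64e-15 against an SD of 4.79 for the values themselves. Libraries of a condition therefore show a spread that is the same in every condition, and whether conditions overlap carries no information on replicate error. The error of each log2 fold change is the standard error (SE) that the authors' model gave for that gene and comparison, and 95% intervals are built from it. The fold changes were shrunken towards 0 by that model, which lowers them most for genes with few footprints. The sum of fitted values per library, which stands in for depth, ranged from 2570292 to 12804501.

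Zfp36 was looked at first as a check of the labels. The level, the geometric mean of the 3 libraries, was 459 in GFP cells and rose to 927 with GFP-TTP (adjusted p = 0.0048) and to 1535 with GFP-TTP-AA (adjusted p = 2.37e-09). The GFP cells thus held Zfp36 footprints although they are labelled as TTP-deficient, and the check bears on the added transgenes and not on the deficiency. Zfp36 was also higher in GFP-TTP-AA than in GFP-TTP cells, by a log2 fold change of 0.73 (SE 0.25, adjusted p = 0.0395). All 6 macrophage markers had means of at least 104 footprints, whereas 8 of 15 markers of T cells, B cells, neutrophils, fibroblasts and epithelium were in the table with means of at most 0.742. The macrophage marker Adgre1, which encodes F4/80, differed between the lines with a level of 3663 in GFP, 2292 with GFP-TTP and 5340 in GFP-TTP-AA cells. Of the 6 markers, 3 (Adgre1, Lyz2 and Fcgr1) were lower in GFP-TTP than in GFP cells (adjusted p = 0.00275, 0.00617 and 0.0022) and higher in GFP-TTP-AA than in GFP-TTP cells (adjusted p = 5.34e-12, 8.66e-06 and 0.0177). Against GFP, only Adgre1 passed the threshold in GFP-TTP-AA cells (adjusted p = 0.0291), and the log2 fold change was 0.16 for Lyz2 and -0.23 for Fcgr1. Itgam, Csf1r and Cd68 passed in no comparison, with log2 fold changes between the TTP lines of -0.0007, 0.33 and 0.19. The part of these differences in the results on metallothioneins was not tested. Lower footprints per cell and fewer cells of a kind cannot be told apart in bulk libraries.

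Mt2 and Mt1 lie side by side on chromosome 8 of GRCm38 on the plus strand, Mt2 at chr8:94172664-94173568 and Mt1 at chr8:94179082-94180327, with starts 6418 nt apart (GENCODE vM21). The bases around their RefSeq starts are shown because the metal response element is the feature that ties the 2 genes to zinc. The core of that element was searched as TGCACNC and TGCGCNC on both strands in the 300 bases from 250 before to 50 after the RefSeq start (GRCm38.p6). No site can be counted under both motifs, since they differ in 1 fixed letter. Capitals mark the matches, which read GNGTGCA or GNGCGCA where they lie on the opposite strand. The Mt1 window is chr8:94178839-94179138 and the Mt2 window is chr8:94172368-94172667, both on the plus strand. The Mt2 window ends just past the GENCODE start at 94172664, and so holds almost only sequence before that start. Bases outside the windows were not searched, so that the counts are not those of the whole promoters.
Mt1: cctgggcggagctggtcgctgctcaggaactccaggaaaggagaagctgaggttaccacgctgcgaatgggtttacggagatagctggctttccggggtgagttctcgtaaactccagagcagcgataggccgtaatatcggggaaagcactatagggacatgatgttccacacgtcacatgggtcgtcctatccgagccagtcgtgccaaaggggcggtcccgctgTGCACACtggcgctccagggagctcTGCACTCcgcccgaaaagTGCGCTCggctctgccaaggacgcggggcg
Mt2: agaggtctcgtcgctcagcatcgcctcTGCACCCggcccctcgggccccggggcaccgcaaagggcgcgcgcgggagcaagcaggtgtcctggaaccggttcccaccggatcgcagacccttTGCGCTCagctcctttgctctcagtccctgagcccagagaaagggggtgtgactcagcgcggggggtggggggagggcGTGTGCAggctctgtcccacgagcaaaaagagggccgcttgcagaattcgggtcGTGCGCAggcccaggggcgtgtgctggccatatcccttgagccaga

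The Mt1 window held 3 matches, all on the gene's own strand, with first bases at -23, 2 and 20 from the RefSeq start. Of the 32851 promoters in the RefSeq table, 1.97% held at least as many. The Mt2 window held 4, 2 on each strand, with first bases at -223, -128, -50 and 4. At least as many were held by 0.52% of promoters. Of the other members, Slc30a1 had 2 matches (7.11% of promoters with at least as many) and Slc30a5 had 1 (25.7%). Mtf1, Slc30a7, Slc39a1 and Slc39a10 had no match in this window. Slc39a6 and Slc39a14 were not matched, so that 8 of 10 members were searched. A match of letters is a description of the sequence and not evidence of Mtf1 binding.

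In the 3′UTR, where TTP binds, neither metallothionein had the AU-rich pentamer ATTTA. In the transcript with the longest coding sequence, the 3′UTR is 134 nt in Mt1 and 141 nt in Mt2. All 8 other members had at least 2 copies, up to 11 in Slc30a7, whose 3′UTR is 7691 nt long. Slc30a1 and Slc30a5 each had 1 copy of the longer TATTTAT. Among the 9959 genes kept with an annotated 3′UTR, 67.7% had at least 1 ATTTA, but of the 672 genes with a 3′UTR of 100 to 200 nt only 25.0% had one. The absence of the pentamer from such short 3′UTRs was thus the common case.

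Mt2, which stores and buffers zinc, was lower than in GFP cells in the line with GFP-TTP and higher in the line with GFP-TTP-AA. Its normalized fitted footprints were 52.2, 39.1 and 40.0 in the GFP libraries, 30.3, 22.6 and 23.1 in the GFP-TTP libraries and 257, 191 and 196 in the GFP-TTP-AA libraries. The level was thus highest in GFP-TTP-AA and lowest in GFP-TTP cells. As the values are fitted, the separation of the libraries carries no information on replicate error. Against GFP, the log2 fold change was -0.79 in GFP-TTP (SE 0.24, 95% interval -1.25 to -0.33) and 2.29 in GFP-TTP-AA cells (SE 0.23, 95% interval 1.85 to 2.74). GFP-TTP-AA exceeded GFP-TTP by a log2 fold change of 3.09 (SE 0.23, 95% interval 2.63 to 3.54), or 8.49-fold. Among the 10103 genes, Mt2 had the rank 2 from the highest change in GFP-TTP-AA against GFP, the rank 3 in GFP-TTP-AA against GFP-TTP and the rank 86 from the lowest change in GFP-TTP against GFP. The ranks in the comparisons of GFP-TTP-AA cells are those on which the gene was chosen.

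Mt1, the more abundant metallothionein, differed less between conditions. Its fitted footprints were 1285, 1039 and 1018 in GFP, 1457, 1175 and 1148 with GFP-TTP and 2059, 1654 and 1622 in GFP-TTP-AA cells. Here GFP-TTP-AA was again highest, but GFP-TTP lay slightly above GFP and not below it. The log2 fold change was 0.18 in GFP-TTP against GFP (SE 0.16, 95% interval -0.13 to 0.49), 0.67 in GFP-TTP-AA against GFP (SE 0.16, 95% interval 0.37 to 0.98) and 0.50 in GFP-TTP-AA against GFP-TTP (SE 0.16, 95% interval 0.19 to 0.81).

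**Figure D1:**
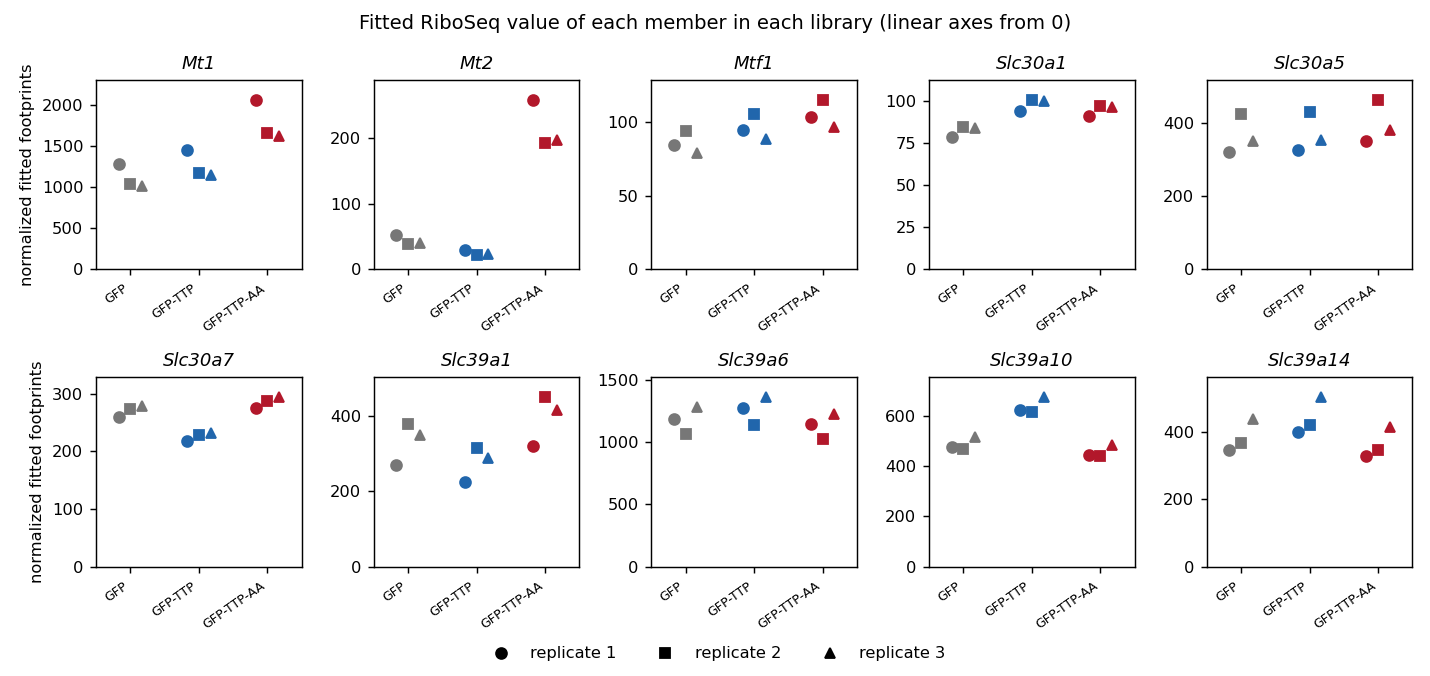
Normalized fitted RiboSeq footprints (linear axes from 0) of the 10 members in each of the 9 libraries, with conditions on the x axis and replicates 1, 2 and 3 as circles, squares and triangles. Mt2 lies between 191 and 257 in GFP-TTP-AA libraries and at most at 52.2 in all others, and the replicates keep the same pattern in every condition because the values are fitted.

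Because both coding sequences are 183 nt long, the 2 metallothioneins can be compared directly. The level of Mt1 was 25.5 times that of Mt2 in GFP, 49.9 times with GFP-TTP and 8.30 times in GFP-TTP-AA cells. Mt2 thus made up 3.77%, 1.96% and 10.7% of the sum of both. The sum itself was 1151 in GFP, 1278 with GFP-TTP and 1981 in GFP-TTP-AA cells, or 1.72 times GFP in the last. The rise of the sum in GFP-TTP-AA cells was carried mostly by Mt1 footprints, although Mt2 had the larger fold change.

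The coding sequences of Mt1 and Mt2 are 79.2% identical (145 of 183 bases). None of the 156 windows of 28 nt in Mt2, about the length of a footprint, was found in Mt1 without a mismatch, and 18 were found with up to 2 mismatches. The Mt2 coding sequence had 2 other matches in the assembled chromosomes (blastn on GRCm38.p6) with a run of at least 28 bases, and Mt1 had none. The longest match covered 179 nt, and whether the matches lie at separate places was not examined. The authors' mapping kept reads with up to 2 places. How reads with several places were counted is not given in the sources used here. Some Mt2 footprints may therefore be shared with such copies or left out of the Mt2 value.

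Of 17 genes within 1 Mb of Mt2, 16 could be tested in GFP-TTP against GFP, all but Dok4, and 17 in the other comparisons. None passed the threshold of 0.05 (Wald test on the fitted fold changes with Benjamini-Hochberg adjustment), and 1 had an unadjusted p below 0.05 in each comparison. Of all genes tested, 2.1%, 3.02% and 10.3% passed the threshold in GFP-TTP against GFP, GFP-TTP-AA against GFP and GFP-TTP-AA against GFP-TTP, and 11.3%, 14.2% and 22.1% had an unadjusted p below 0.05, so that the counts of neighbours lie near or below the background. Their log2 fold changes ran from -0.20 to 0.45 in GFP-TTP-AA against GFP, with a median of -0.003, and from -0.29 to 0.51 in GFP-TTP-AA against GFP-TTP. In GFP-TTP against GFP they ran from -0.43, the value of the untested Dok4, to 0.32. The median over the 556 genes of chromosome 8 was 0.02 in both comparisons with GFP and -0.01 between the TTP lines.

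**Figure D2:**
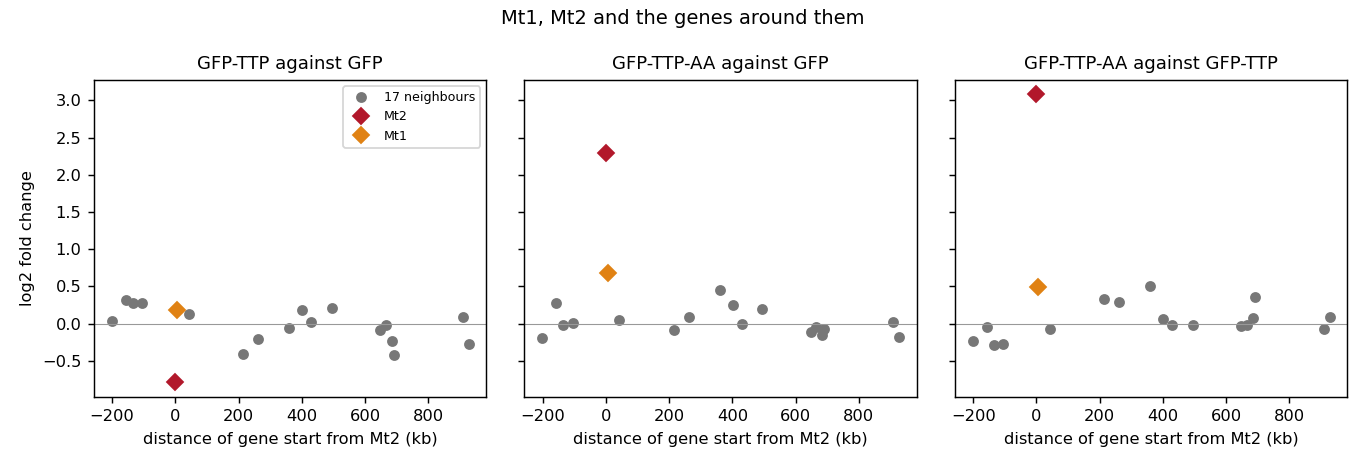
Log2 fold change (y axis) of Mt2, Mt1 and 17 genes within 1 Mb, against the distance of the gene start from that of Mt2 in kb (x axis), in the 3 comparisons. Mt2 stands at 3.09 in GFP-TTP-AA against GFP-TTP, where the 17 neighbours lie between -0.29 and 0.51.

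The same shares of all genes, 2.1%, 3.02% and 10.3%, are the background for the counts of members and lists that follow. Mtf1, the transcription factor that drives the metallothioneins, had a level of 85.2 in GFP, 95.8 with GFP-TTP and 104 in GFP-TTP-AA cells. Its log2 fold change was 0.29 in GFP-TTP-AA against GFP (SE 0.21, 95% interval -0.12 to 0.71, adjusted p = 0.599), and it passed the threshold in no comparison (lowest adjusted p = 0.599).

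Of the exporters, none passed the threshold in any comparison. Slc30a1, the plasma membrane exporter and another known target of Mtf1, had levels of 82.2, 98.0 and 94.7 in GFP, GFP-TTP and GFP-TTP-AA cells. Its log2 fold change of 0.21 in GFP-TTP-AA against GFP had a 95% interval of -0.22 to 0.63 (adjusted p = 0.767). Slc30a5 and Slc30a7, which load zinc into the secretory pathway, had log2 fold changes between -0.26 and 0.34. The highest of these was that of Slc30a7 in GFP-TTP-AA against GFP-TTP (SE 0.17, adjusted p = 0.226), and the gene lies, like Slc39a1, on chromosome 3. The median of the 475 genes kept from that chromosome was 0.08 in that comparison and -0.18 in GFP-TTP against GFP.

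Of the 4 importers, only Slc39a10, a transporter of the plasma membrane, passed the threshold, and only in GFP-TTP-AA against GFP-TTP. Its fitted footprints were 475, 470 and 518 in GFP, 623, 615 and 675 with GFP-TTP and 446, 439 and 483 in GFP-TTP-AA cells. GFP-TTP was thus highest, and the other conditions lay close to each other. The log2 fold change between the TTP lines was -0.48 (SE 0.17, 95% interval -0.81 to -0.16, adjusted p = 0.0403). It was 0.39 in GFP-TTP against GFP (SE 0.17, adjusted p = 0.298) and -0.10 in GFP-TTP-AA against GFP (SE 0.17, adjusted p = 0.899). The call between the TTP lines was lost when p-values were adjusted over the 3 comparisons together, where the adjusted p rose to 0.0666. It stayed in 4 of 5 alternatives, and the adjusted p ran from 0.039 to 0.0666 over the main setting and these.

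Slc39a1, a plasma membrane importer, had a log2 fold change of 0.52 in the same comparison (SE 0.19, 95% interval 0.15 to 0.89) and missed the threshold with an adjusted p of 0.0539. Its levels were 330 in GFP, 273 with GFP-TTP and 393 in GFP-TTP-AA cells. Slc39a14, known for its induction in inflammation and for the uptake of iron and manganese as well as zinc, and Slc39a6, a further plasma membrane importer, had log2 fold changes between -0.28 and 0.20, with no adjusted p below 0.328. The 4 importers thus had no common direction, since Slc39a1 had the opposite sign to Slc39a6, Slc39a10 and Slc39a14 in each comparison. Of these changes, only that of Slc39a10 between the TTP lines passed the threshold.

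Among the 8 members other than the metallothioneins, 0 of 8 passed the threshold in GFP-TTP against GFP and 0 of 8 in GFP-TTP-AA against GFP, with 1 and 0 at an unadjusted p below 0.05. In GFP-TTP-AA against GFP-TTP 1 of 8 was called. The median log2 fold change of the 8 was 0.13, 0.10 and 0.03 in the 3 comparisons, against a median of all genes of 0.003, 0.004 and 0.003. These counts lie near the background of 2.1%, 3.02% and 10.3%.

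**Figure D3:**
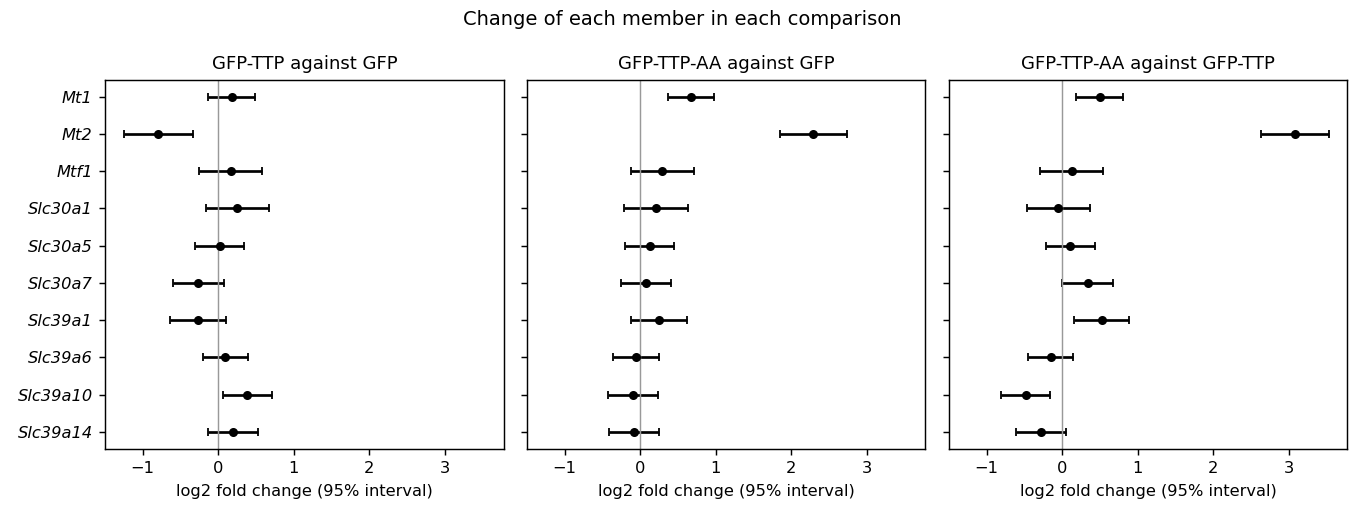
Log2 fold change (x axis, points) with its 95% interval (bars) for each of the 10 members (y axis) in the 3 comparisons. Mt2 lies at -0.79, 2.29 and 3.09, whereas the 8 members other than Mt1 and Mt2 lie between -0.48 and 0.52.

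Per kb of coding sequence, Mt1 had the highest level of the 10 members in every condition, with 6055 footprints per kb in GFP, 6845 with GFP-TTP and 9659 in GFP-TTP-AA cells. Slc39a6 came next in GFP (512) and GFP-TTP cells (547). Mt2 stood at 237 per kb in GFP cells, level with Slc30a7 at 238, and at 137 in GFP-TTP cells between Slc30a5 at 160 and Slc30a1 at 64.9. In GFP-TTP-AA cells Mt2 rose to rank 2 with 1163 per kb, above Slc39a6 at 493. Slc30a1 and Mtf1 had the lowest levels in each condition, at most 64.9 per kb. Neighbours in this order, such as Slc39a14 at 299 and Slc39a1 at 281 in GFP-TTP cells, were not tested against each other.

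The 5 genes whose pattern was nearest to that of Mt2 were Cxcl16, Uchl1, 2510009E07Rik, Myo1d and Eif2s3y. Likeness was the distance between log2 fold changes over GFP in both TTP lines, among 8439 genes with a mean of at least 50, and over 3 conditions that share the GFP libraries. Cxcl16, a chemokine, was nearest at a distance of 0.39, with levels of 56.0, 32.6 and 210 in GFP, GFP-TTP and GFP-TTP-AA cells, close to those of Mt2. Uchl1, a deubiquitinating enzyme abundant in neurons, had levels of 264, 145 and 776, at a distance of 0.74. The levels of 2510009E07Rik were 34.5, 17.3 and 103, and those of Myo1d, an unconventional myosin, were 36.2, 25.4 and 105. Eif2s3y, at a distance of 0.97, is a gene of the Y chromosome and had levels of 120, 51.4 and 325. None of the 5 lies on chromosome 8.

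**Figure D4:**
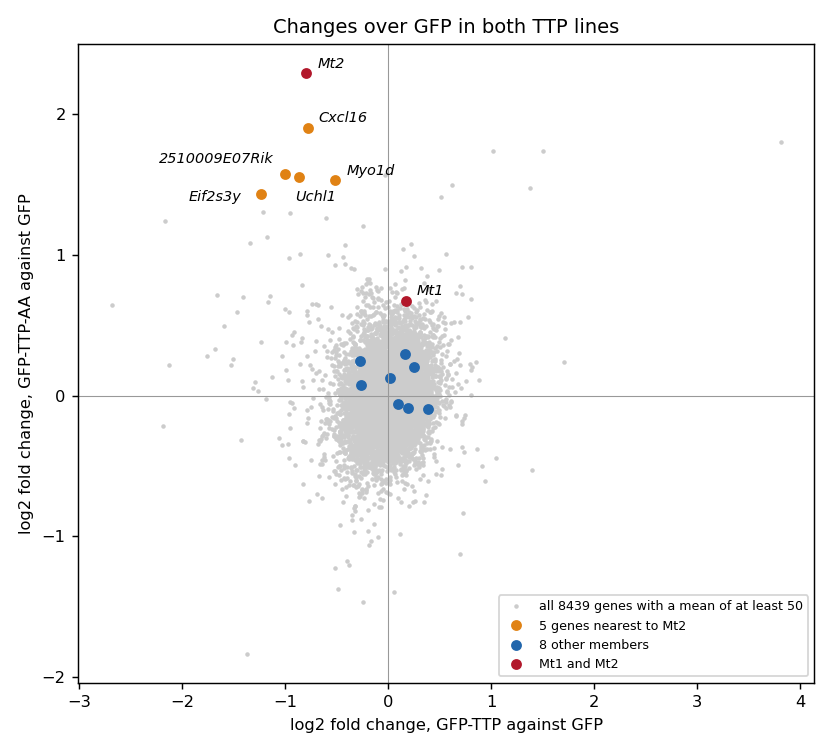
Log2 fold change over GFP in cells with GFP-TTP (x axis) and with GFP-TTP-AA (y axis) for 8439 genes with a mean of at least 50 (grey), with Mt1 and Mt2 in red, the 8 other members in blue and the 5 genes nearest to Mt2 in orange. Mt2 lies at the upper left (-0.79 and 2.29), while the 8 other members lie within the cloud of all genes.

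Of 20 further zinc transporters and metallothioneins, 13 were in the table and 10 had a mean of at least 10, and Mt3 and Mt4 were not in the table. In GFP-TTP-AA against GFP-TTP 1 of 10 was called, Slc39a4, a plasma membrane zinc importer best known from the intestine. Its level was 134 in GFP, 125 with GFP-TTP and 224 in GFP-TTP-AA cells, with a log2 fold change of 0.84 between the TTP lines (SE 0.24, adjusted p = 0.00945). The list's median log2 fold change was -0.05, 0.05 and -0.01 in the 3 comparisons.

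Of 15 genes for copper and iron handling with a mean of at least 10, 0 were called in GFP-TTP against GFP. In GFP-TTP-AA against GFP 2 were called, and 3 in GFP-TTP-AA against GFP-TTP. Of all genes, 2.1%, 3.02% and 10.3% were called. At an unadjusted p below 0.05 there were 0, 5 and 6 of the list, next to 11.3%, 14.2% and 22.1% of all genes. Slc31a2, a copper transporter of endosomes, was higher in GFP-TTP-AA than in GFP (log2 fold change 0.72, SE 0.21, adjusted p = 0.021) and than in GFP-TTP cells (1.02, SE 0.21, adjusted p = 4.79e-05). Slc11a1, which pumps metal ions out of the phagosome, was higher than in GFP-TTP cells (0.84, SE 0.20, adjusted p = 0.00133), and Hmox1, which degrades haem, was lower (-0.44, SE 0.16, adjusted p = 0.0438). The call of Hmox1 was lost with chromosome medians subtracted (adjusted p = 0.0565) and with adjustment over the 3 comparisons together (adjusted p = 0.072). Fth1, the ferritin heavy chain, was higher in GFP-TTP-AA than in GFP cells (0.44, SE 0.14, adjusted p = 0.0409) and was named after its value was seen. Its call was lost with the library scale from totals (adjusted p = 0.0515) and with chromosome medians subtracted (adjusted p = 0.192). The list's median log2 fold change was 0.21 in GFP-TTP-AA against GFP and 0.25 between the TTP lines, against 0.004 and 0.003 over all genes.

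Of 12 metal and oxidant stress genes, 0 were called against GFP in either line. At an unadjusted p below 0.05 there were 1 and 4 against GFP and 3 between the TTP lines, next to 11.3%, 14.2% and 22.1% of all genes. Between the TTP lines Srxn1, which repairs oxidized peroxiredoxins, was higher in GFP-TTP-AA cells (0.66 on the log2 scale, SE 0.20, adjusted p = 0.0137) and the chaperone gene Hsph1 was lower (-0.40, SE 0.13, adjusted p = 0.0217). Of 11 glucocorticoid and cytokine response genes, 0 were called against GFP (1 and 2 at an unadjusted p below 0.05, and 4 between the TTP lines), and Socs3, an inhibitor of cytokine signalling, was higher in GFP-TTP-AA than in GFP-TTP cells (0.53, SE 0.17, adjusted p = 0.0297). The medians of both lists in that comparison were 0.09 and 0.33. No list had a member with a change as large as that of Mt2. Since Mt2 was chosen for its high fold changes, this carries no information on the lists.

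**Figure D5:**
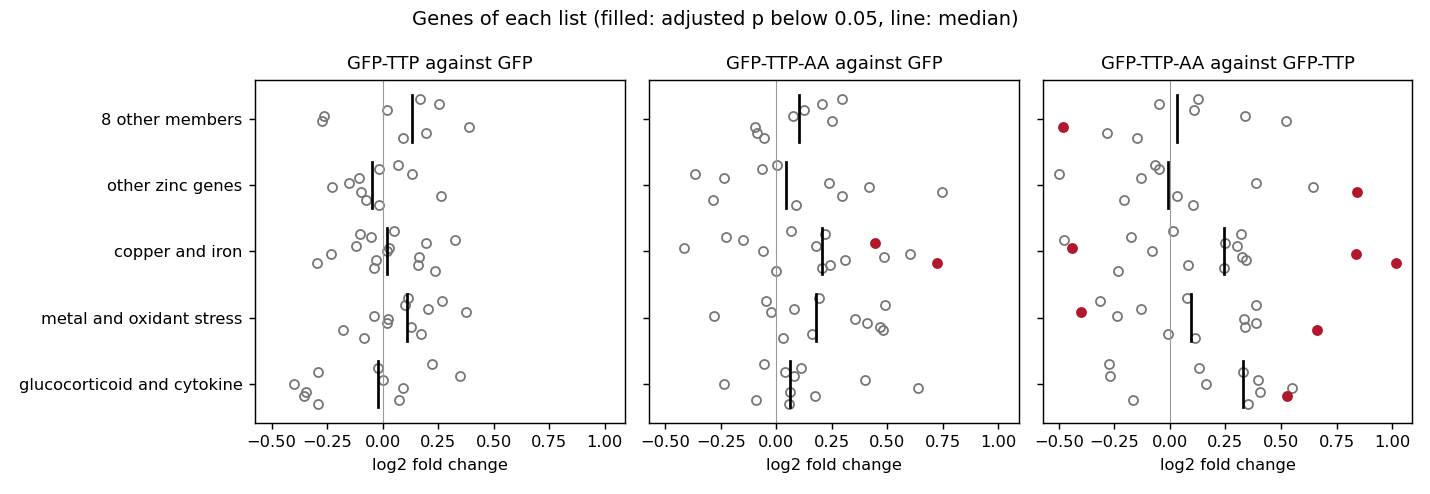
Log2 fold change (x axis) of each gene with a mean of at least 10 in 5 gene lists (y axis) in the 3 comparisons, with filled points for an adjusted p below 0.05 and a line at the median of the list. Filled points appear mostly in GFP-TTP-AA against GFP-TTP, where Slc31a2 lies furthest right at 1.02.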

How the data were processed

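RiboSeq values of 9 libraries, 3 per condition, were analysed. Per the methods, the authors mapped reads to mm10 (GRCm38) with TopHat, keeping up to 2 places per read, and fitted the counts with DESeq2 (1.6.3), with terms for library date and condition. The submitters' processing notes name TopHat2 (2.0.12), Trim Galore and HTSeq. The table they deposited as normalized counts holds a signal, the value fitted for each gene and library (16932 lines, 11 of them repeated). The comparison tables they deposited hold log2 fold changes with standard errors, a statistic and p-values, of which only the standard error on the log2 scale was used.

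Fitted values were scaled by the median of ratios (factors 0.415 to 2.123). Mean log2 values of 2 conditions were subtracted to give the log2 fold change, without a pseudocount, as no value was 0. It was divided by its standard error, and two-sided normal p-values were adjusted by the Benjamini-Hochberg method over all genes with a mean of at least 10 and a standard error (9938, 10103 and 10103 genes), with a threshold of 0.05. This Wald test replaced tests that need replicate spread. The scripts were tested on simulated data (Python 3.11.15). The members and lists were chosen with earlier results of these data known. All members were named, with at most 3 genes past the threshold per list, the 5 genes nearest to Mt2, and Zfp36. Fth1 was named beyond this limit, after its value was seen. Alternatives were another library scale, pseudocounts of 1 and 10, subtraction of chromosome medians, no filter, a mean of at least 50 and joint adjustment. Whether replicates came from separate cultures is not given in the sources used here.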

Additional observations from a re-analysis of the deposited data

How the results depend on the processing

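No paired analysis was possible because the deposited values are fitted and hold no replicate spread. The authors' fit already had a term for library date, so that the fold changes and standard errors come from a model with such a block, and a fit without it or without single libraries was not run. Of 210 fold changes of members under an alternative, 207 kept their direction and their side of the threshold or moved by less than their standard error. This count was partly fixed in advance. The settings without a filter, with a mean of at least 50 and with joint adjustment act only on the adjusted p and cannot move a fold change. Mt1 and Mt2 had no call that could be lost. With a pseudocount of 10 the log2 fold change of Mt2 was 2.06 in GFP-TTP-AA against GFP and 2.67 in GFP-TTP-AA against GFP-TTP, since its level is low. With adjustment over the 3 comparisons together, the log2 fold change of Slc39a10 between the TTP lines stayed at -0.48 but was no longer called, so that 0 of the 8 members other than the metallothioneins were called in that comparison (2 at an unadjusted p below 0.05), and 1 of the other zinc genes was called in GFP-TTP-AA against GFP. Of 90 counts of called genes, 83 stayed within 1.5 times. With the library scale from totals, 1 gene for copper and iron handling was called in GFP-TTP-AA against GFP, Fth1 being lost. With chromosome medians subtracted, Fth1 was lost too, 1 gene of that list and 1 other zinc gene were called there, and 2 glucocorticoid and cytokine response genes were called in GFP-TTP-AA against GFP-TTP, as with a mean of at least 50. Hmox1 was lost in GFP-TTP-AA against GFP-TTP with chromosome medians subtracted and with joint adjustment. The cause of these shifts was not tested. Depth per library enters through the standard errors, which for the 8 members other than the metallothioneins were 0.15 to 0.22. It also enters through the shrinkage of the fold changes.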
